A study of Homo sapiens with 8 samples.

Results

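H3K27ac at 10 Wnt pathway genes was followed in human colonic epithelial cells (HCECs) with and without CREBBP. The genes were AXIN2, LGR5, ASCL2, RNF43, ZNRF3 and NKD1, which are Wnt targets or intestinal stem genes, TCF7L2, TCF7L1 and LEF1, which encode the DNA-binding factors of the pathway, and APC, its main intestinal brake. A locus was the GENCODE gene body plus 50 kb on either side (hg38), and all H3K27ac peaks overlapping it were taken, whatever their height. Merged across libraries, the 10 loci held 166 of the 143733 H3K27ac intervals of the series, and the genes are 10 of 20007 annotated protein-coding genes.

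Wnt ligands bind Frizzled and LRP receptors, and this halts the destruction complex, in which APC and AXIN proteins hold beta-catenin for phosphorylation and degradation. Stabilised beta-catenin enters the nucleus, binds TCF/LEF proteins on DNA and recruits coactivators, among them the acetyltransferases CREBBP (CBP) and EP300. In the colon this signal maintains the stem cells at the crypt base, which LGR5 and ASCL2 mark, and it switches on its own inhibitors, such as AXIN2, RNF43, ZNRF3 and NKD1. Acetylation of histone H3 at lysine 27 marks active promoters and enhancers, and CREBBP is one of the enzymes that deposit it.

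The data were peak lists from chromatin immunoprecipitation and sequencing (ChIP-seq) of HCEC-1CT, an immortalised line from normal human colon, with 3 WT and 3 CREBBP-KO libraries. The line carries a doxycycline-inducible Cas9, and CREBBP was knocked out with a synthetic guide RNA. The study's methods call the CREBBP-KO cells monoclonal and elsewhere state that clones, and matched parental subclones, were pooled, so a difference between genotypes cannot be told apart from a difference between clones. Nothing in the labels ties a replicate to a separate clone, so the tests measure the spread between these libraries. The fold enrichment of a peak is its signal over the local background as the peak caller gives it, and its percentile is the rank of that fold within its own list, with 100 the highest.

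The CREBBP-KO lists were longer, with 99008 to 111697 peaks against 86163 to 93567 in WT (ratio of means 1.16, exact permutation test, p = 0.1, the smallest that 3 libraries against 3 allow), and their median fold was lower (4.02 to 4.10 against 4.32 to 4.46). In the middle of the lists the same fold therefore stood at a higher percentile in CREBBP-KO. A fold of 4.19, for example, stood at 47.8 in WT 2 and at 51.3 in CREBBP-KO 3. The lists hold no read counts, so their depth is unknown, and whether depth or genotype sets their length cannot be told apart. The study has 1 input per genotype and the control of each list is not given, so a difference in the background of the folds cannot be told apart from genotype either. The label of colonic epithelium was checked at promoters: of 10 epithelial markers, 0 had a promoter peak in all 6 libraries and 9 had none in any, EPCAM, CDH1, KRT8, KRT19, KRT20, CDX1, CDX2, VIL1 and LGALS4 among them, and KRT18 had a peak in 5 libraries. All 5 fibroblast markers (VIM, COL1A1, COL1A2, PDGFRB and DCN) had one in all 6, at percentiles 77.9 to 99.9. Of 4 immune markers CD14 alone had promoter peaks, and none of the 3 endothelial markers did. The cells are therefore called by the name of the line, and the loci below were read in chromatin that lacked promoter peaks at 9 of these 10 epithelial markers in both genotypes. The part of this in the results below was not tested.

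At their promoters, taken as 1 kb on either side of the canonical transcript start, the 10 genes fell into 3 groups. AXIN2, TCF7L2, APC, ZNRF3 and LEF1 had a promoter peak in all 6 libraries. LGR5, ASCL2, RNF43 and NKD1 had none in any library. TCF7L1 had a single weak peak, in library CREBBP-KO 2. Over all protein-coding genes, 59.1% had a promoter peak in all 6 libraries and 35.1% had none, so the 50.0% and 40.0% among the 10 genes lay near the background.

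AXIN2 encodes a scaffold of the destruction complex and is a direct target widely used as a readout of the pathway. The gene spans chr17:65528563-65561648 on the minus strand. Its promoter carried the most enriched peaks of the 10 genes: fold 20.3, 18.9 and 20.2 in WT 1 to 3, and 29.7, 31.7 and 25.6 in CREBBP-KO 1 to 3. The percentiles were 97.9, 97.7 and 97.9 in WT and 99.6, 99.6 and 98.7 in CREBBP-KO, without overlap between the genotypes (97.8 ± 0.125 and 99.3 ± 0.528, SD, n = 3 each, exact permutation test, p = 0.1). The promoter was thus among the highest peaks of every list, with and without CREBBP. In the limma fit across all filtered intervals it ranked higher in CREBBP-KO by 0.51 ± 0.17 (SE) normal-score units (adjusted p = 0.0246). This call was lost when peaks were ranked by -log10 p in place of fold (shift 0.03, limma adjusted p = 0.895), and without WT 1, WT 2, CREBBP-KO 1 or CREBBP-KO 2 (limma adjusted p = 0.0610, 0.0632, 0.0900 and 0.112).

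The AXIN2 promoter interval is shown because the 300 bases around its summit, in intron 1, held a match to the core of the TCF/LEF binding motif, searched as CTTTGAA or CTTTGAT on either strand (the 2 strings share their first 6 letters). The match is in capitals, read on the plus strand of hg38.
AXIN2 promoter summit, chr17:65561208-65561507, plus strand: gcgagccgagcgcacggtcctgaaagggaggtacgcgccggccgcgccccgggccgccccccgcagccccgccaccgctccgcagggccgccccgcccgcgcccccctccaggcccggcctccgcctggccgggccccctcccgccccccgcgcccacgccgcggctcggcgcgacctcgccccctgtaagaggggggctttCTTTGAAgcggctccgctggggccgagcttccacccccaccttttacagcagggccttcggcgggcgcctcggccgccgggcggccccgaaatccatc

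The 300-base window from 250 before to 50 after the AXIN2 start held no match. Such windows held one at 5.18% of all protein-coding genes, and 300-base summit windows at 9.11% of 34847 tested intervals on the main chromosomes. The motif is short, so a match describes the letters and not a bound site.

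The AXIN2 locus was sparse, with 3 peaks in each WT library and 5, 5 and 4 in the CREBBP-KO libraries, the promoter included. An interval in intron 10, at 30.6 kb from the start (chr17:65530254-65532611; distances run in the direction of transcription, and negative values are upstream), had folds of 4.86, 4.14 and 5.89 in WT and 9.02, 8.30 and 6.87 in CREBBP-KO. All CREBBP-KO libraries stood above all WT libraries (percentiles 56.1 ± 8.65 and 78.4 ± 5.37, SD, n = 3), and the interval ranked higher by 1.06 ± 0.30 (SE, limma adjusted p = 0.00789; 0.0518 without CREBBP-KO 1). It passed the fold filter through CREBBP-KO only, and in the fit without that filter its shift was 0.73 (limma adjusted p = 0.0171). A further interval at 46.9 kb, beyond the end of the gene, moved the same way in level (percentiles 30.4 ± 16.5 and 65.3 ± 13.6, SD, n = 3, without overlap) but missed the fold filter; in the fit without that filter its shift was 1.02 (limma adjusted p = 0.0322). The remaining 3 intervals of the locus were found in CREBBP-KO libraries only, at fold 3.07 or less.

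RNF43 and ZNRF3 encode paired transmembrane ubiquitin ligases that clear Frizzled receptors from the cell surface, and both are switched on by Wnt signalling as negative feedback. In these cells their loci differed. ZNRF3 (chr22, canonical start 28883572, plus strand) had promoter folds of 7.40, 8.04 and 6.70 in WT and 10.4, 10.5 and 8.82 in CREBBP-KO. The percentiles, 74.4, 77.2 and 69.8 against 86.5, 85.0 and 79.8, did not overlap (exact permutation test, p = 0.1), but the rank shift of 0.45 ± 0.22 (SE) did not pass (limma adjusted p = 0.109). RNF43 (chr17, canonical start 58417534, minus strand) had no peak in its body in any library: the nearest lay 64255 to 64443 bp away, beyond the other end of the gene. Its 4 intervals were all beyond that end. The most enriched of them, at 79.6 kb, stood at percentiles 82.5 to 90.7 with overlapping genotypes, and the next, at 65.5 kb, covered the start of SUPT4H1 (81.8, 86.3 and 84.6 in WT, and 94.0, 85.5 and 89.9 in CREBBP-KO). Neither was called (limma adjusted p = 0.898 and 0.242).

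Inside ZNRF3 the most enriched interval was not the promoter but one in intron 2, at 148.2 kb (chr22:29030078-29033512), which also covered a start of the antisense RNA ZNRF3-AS1. It had folds of 16.8, 18.3 and 16.5 in WT and 13.4, 14.8 and 14.2 in CREBBP-KO. Every CREBBP-KO library stood below every WT library (percentiles 96.1 ± 1.14 and 91.6 ± 0.783, SD, n = 3), and the interval ranked lower by -0.61 ± 0.16 (SE, limma adjusted p = 0.00534). That call was lost with -log10 p as the measure (adjusted p = 0.251) and on the log2 fold scale without centring (limma adjusted p = 0.0745). An interval in intron 4 at 161.0 kb stood at percentiles 79.6 to 89.3 in all 6 libraries and was not called (limma adjusted p = 0.343).

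The flank of ZNRF3 held the promoter of KREMEN1, a coreceptor of the DKK inhibitors that removes LRP coreceptors from the membrane. This interval (chr22:29072892-29073748) had folds of 4.35, 5.40 and 4.16 in WT and 10.5, 8.32 and 9.65 in CREBBP-KO. The genotypes were far apart in rank (percentiles 52.6 ± 8.47 and 82.7 ± 3.73, SD, n = 3), and at 1.52 ± 0.28 (SE, limma adjusted p = 0.000272) its shift was the largest upward one among the called intervals of the 10 loci. It passed the fold filter through the CREBBP-KO libraries only. In the fit without that filter its shift was 1.05 (limma adjusted p = 0.000682), below the 1.3 of the TCF7L2 interval at 36.1 kb. The call held under all alternatives in which the interval was tested.

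NKD1 encodes a cytoplasmic antagonist that binds Dishevelled. No library had a peak near its start or in its body: the nearest lay 116576 to 116712 bp from the start, beyond the gene (gene length 100.9 kb). The locus had 2 or 3 peaks in each library. One, at 116.9 kb, stood at percentiles 58.6 ± 3.54 in WT and 60.5 ± 10.0 in CREBBP-KO (SD, n = 3, overlapping), with mean folds of 5.10 and 4.96. The other, at the start of NOD2, an innate immune receptor gene, had folds of 4.23, 4.46 and 5.77 against 7.27, 7.01 and 7.41 and ranked higher in CREBBP-KO by 0.91 ± 0.29 (SE, limma adjusted p = 0.0172). Leaving out WT 1, WT 2, CREBBP-KO 1 or CREBBP-KO 3 lost that call (limma adjusted p = 0.0526 to 0.0596). The NOD2 interval passed the fold filter through CREBBP-KO only, and in the fit without that filter its shift was 0.63 (limma adjusted p = 0.0363).

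LGR5 encodes the R-spondin receptor that marks crypt base stem cells. Its promoter had no peak in any library, and the nearest peak lay 8028 to 29280 bp from the start (chr12, canonical start 71439798, plus strand). Acetylation was instead found inside intron 1. The interval at 37.4 kb (chr12:71475016-71478589) had folds of 7.94, 7.43 and 8.45 in WT and 12.0, 13.3 and 16.5 in CREBBP-KO. No CREBBP-KO library overlapped the WT range (percentiles 76.4 ± 1.68 and 91.1 ± 2.10, SD, n = 3), and the interval ranked higher by 0.87 ± 0.20 (SE, limma adjusted p = 0.00175), a call that held under all alternatives in which it was tested. Its neighbour at 32.8 kb had percentiles of 64.0, 60.3 and 65.0 against 72.3, 80.0 and 82.3, also without overlap, but was not called (shift 0.71 ± 0.28, SE, limma adjusted p = 0.0517). A peak at 44.8 kb was present in all 3 CREBBP-KO libraries, at folds of 5.41, 4.01 and 3.99, and in no WT library.

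The summit of the LGR5 intron 1 interval is shown as the most enriched acetylated site of a gene whose promoter was silent. It held no TCF/LEF core match.
LGR5 intron 1 summit, chr12:71477045-71477344, plus strand: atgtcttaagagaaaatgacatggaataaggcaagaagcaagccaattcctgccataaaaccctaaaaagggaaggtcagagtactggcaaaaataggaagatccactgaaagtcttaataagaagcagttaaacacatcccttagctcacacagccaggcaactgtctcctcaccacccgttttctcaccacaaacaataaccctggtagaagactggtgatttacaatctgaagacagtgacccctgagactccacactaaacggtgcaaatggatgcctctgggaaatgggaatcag

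In number, the peaks of the LGR5 locus did not follow that site: 11, 12 and 12 in WT and 10, 9 and 11 in CREBBP-KO (exact permutation test, p = 0.2). The other intervals with a peak in all 6 libraries lay in intron 1 (29.9 kb), in exon 6 and beyond the gene, at percentiles from 5.05 to 62.1.

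**Figure D1:**
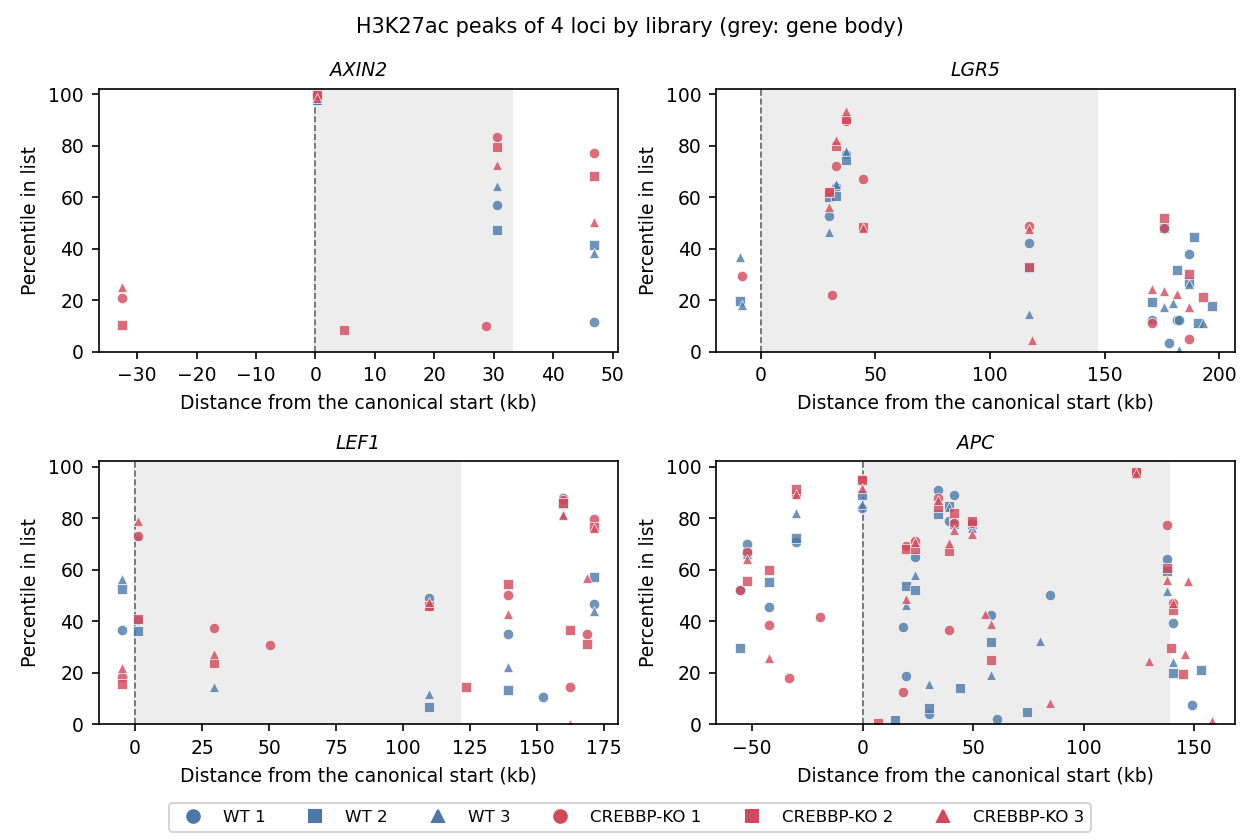
Percentile of each H3K27ac peak within its list (y axis) against the distance of the interval's summit from the canonical start in kb (x axis), for AXIN2, LGR5, LEF1 and APC, with 1 point per library, WT in blue and CREBBP-KO in red, and the gene body in grey. LGR5 had no point at its start and its highest points in intron 1, whereas AXIN2 and APC had high points at the start.

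ASCL2 encodes the transcription factor that, with LGR5, defines the crypt base stem cell state. The gene (2.1 kb, chr11:2268498-2270588) had no peak, and the nearest lay 33383 to 35677 bp from the start. All 4 intervals of the locus were upstream. The one with a peak in every library, at -35.9 kb, had folds of 6.18, 6.52 and 9.30 in WT and 5.65, 4.22 and 5.69 in CREBBP-KO. Its percentiles over the whole lists overlapped (72.9 ± 7.14 and 62.4 ± 8.82, SD, n = 3), while among the filtered intervals it ranked lower by -0.92 ± 0.31 (SE, limma adjusted p = 0.0251). The call rested on single libraries (limma adjusted p = 0.183 without WT 3 and 0.125 without CREBBP-KO 2) and on the fold filter (0.0593 without it). A weaker peak at -33.7 kb was present in all 3 WT libraries, at folds of 3.78, 3.18 and 3.05, and in no CREBBP-KO library.

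TCF7L2 encodes TCF4, the main partner of beta-catenin in the intestinal epithelium. Its locus held the most H3K27ac intervals of the 10, 47, and showed the widest difference between genotypes: 15, 21 and 16 peaks in WT and 39, 36 and 29 in CREBBP-KO (17.3 ± 3.21 and 34.7 ± 5.13, SD, n = 3, ratio 2.00, exact permutation test, p = 0.1). The lowest CREBBP-KO library thus had 29 peaks against 21 in the highest WT library. Peaks covered 32.2, 36.8 and 31.5 kb of the locus in WT and 57.3, 51.3 and 54.9 kb in CREBBP-KO. Of 5733 protein-coding loci with a mean of at least 10 WT peaks, 10 (0.174%), TCF7L2 itself included, had a ratio of 2.00 or more, and the median ratio was 1.13. This comparison used the lists at full length. It was made for TCF7L2 after its values were seen as the widest difference of the 10 loci, so it describes the locus and is not a test. With the same number of peaks taken from each list, the most significant, the TCF7L2 locus still had 14 to 19 peaks in WT and 27 to 32 in CREBBP-KO.

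Most of the additional peaks lay in introns 4 and 5. In intron 4, intervals with a peak numbered 1, 4 and 1 in WT and 11, 12 and 7 in CREBBP-KO. In intron 5, which with intron 4 takes up most of the gene, they numbered 9, 10 and 11 against 16, 16 and 15. Of the 47 intervals, 19 were found in both genotypes, 27 in CREBBP-KO libraries only and 1 in WT only. The 27 were low peaks, at a median percentile of 22.9 and a highest fold of 4.29. Of these intervals, 4 held a peak in each of the 3 CREBBP-KO libraries, such as one in intron 4 at 80.6 kb (folds 3.51, 4.29 and 3.62) and one beyond the gene at 249.2 kb (folds 3.16, 4.01 and 2.94).

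**Figure D2:**
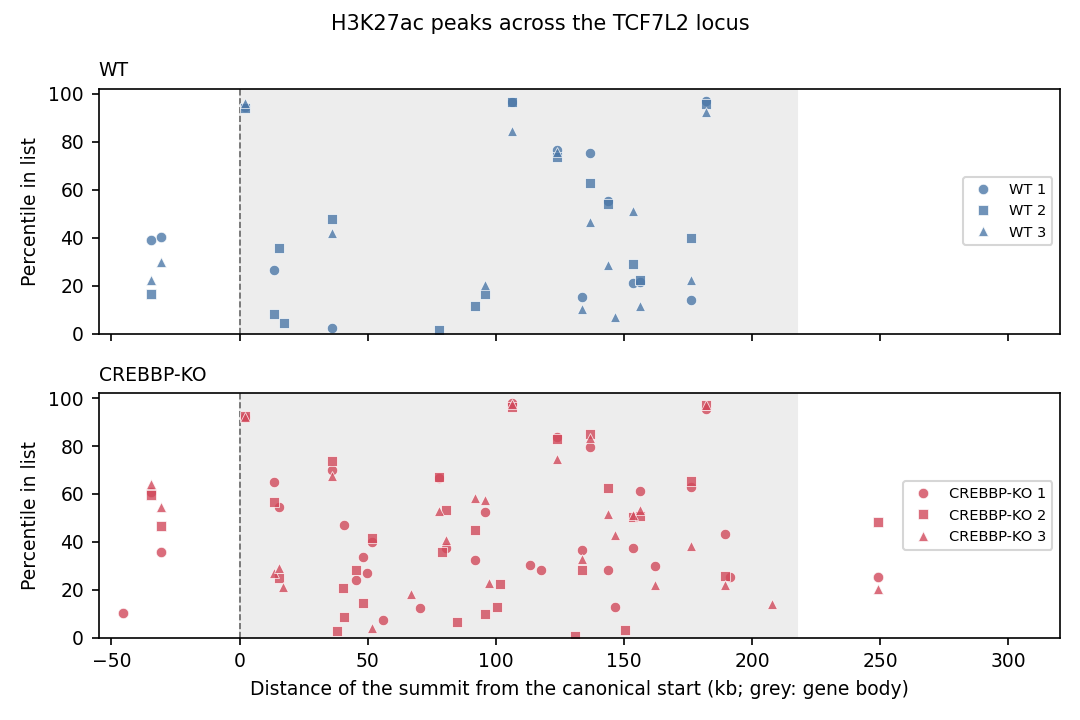
Percentile within its list of each H3K27ac peak at the TCF7L2 locus (y axis) against the distance of the interval's summit from the canonical start in kb (x axis), WT above and CREBBP-KO below, with 1 marker shape per library and the gene body in grey. The start and the sites at 106.1 and 181.9 kb were high in both genotypes, and most points seen in CREBBP-KO alone lay in the lower part of the panel.

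The strong sites of TCF7L2 were present in both genotypes. The promoter interval (chr10:112949398-112961044) had folds of 15.9, 14.6 and 17.5 in WT and 13.7, 15.1 and 15.4 in CREBBP-KO, which overlapped. In percentile the promoter stood at 94.7, 93.9 and 96.2 against 92.1, 92.6 and 92.2, lower without overlap, but the shift of -0.38 ± 0.16 (SE) was not called (limma adjusted p = 0.0657). Sites in intron 5 at 106.1 kb (percentiles 92.5 ± 7.05 and 97.3 ± 0.950) and 181.9 kb (95.1 ± 2.31 and 96.7 ± 0.923, SD, n = 3), the latter at an internal start of the gene, overlapped between genotypes and were not called (limma adjusted p = 0.121 and 0.612). The site at 106.1 kb was called higher with -log10 p as the measure (limma adjusted p = 0.0343) and on the log2 fold scale, centred (0.0303) or not (0.0115), and its shift of 0.42 fell to 0.08 without WT 3, the lowest of the 6 libraries there.

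Of the 6 tested TCF7L2 intervals, 2 ranked higher. The site in intron 4 at 36.1 kb (chr10:112985529-112987783) had folds of 2.38, 4.19 and 3.98 in WT and 5.81, 6.87 and 5.89 in CREBBP-KO. It moved from near the bottom or the middle of the WT lists to percentiles 67.4 to 73.8 (30.7 ± 24.7 and 70.4 ± 3.22, SD, n = 3), a shift of 1.42 ± 0.36 (SE, limma adjusted p = 0.00373) that held under all alternatives in which it was tested. The site in intron 5 at 136.8 kb, named here after its values were seen, had percentiles of 75.4, 63.0 and 46.5 against 79.5, 85.2 and 83.2 (shift 1.02 ± 0.30, SE, limma adjusted p = 0.0105; 0.0524 without CREBBP-KO 2). The sites at 36.1 and 136.8 kb passed the fold filter through CREBBP-KO only. In the fit without that filter their shifts were 1.3 and 0.7 (limma adjusted p = 0.0132 and 0.0172).

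Both summits are shown, since these are the tested intervals that ranked higher at the gene for the main beta-catenin partner. The second holds a TCF/LEF core match, in capitals, and the first holds none. Of the summit windows of all 33 tested intervals of the loci, 5 held a match. A match lay at 2 of the 11 that ranked higher, the AXIN2 promoter and this second summit. It lay at 0 of the 4 that ranked lower and at 3 of the 18 that were not called, which are not shown. A link between the motif and the calls was not tested.
TCF7L2 intron 4 summit, chr10:112986237-112986536, plus strand: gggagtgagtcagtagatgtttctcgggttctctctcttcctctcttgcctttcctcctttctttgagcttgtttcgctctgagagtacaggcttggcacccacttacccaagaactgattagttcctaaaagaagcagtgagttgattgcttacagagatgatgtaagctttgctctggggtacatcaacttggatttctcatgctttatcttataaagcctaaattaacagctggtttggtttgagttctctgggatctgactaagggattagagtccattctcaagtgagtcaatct
TCF7L2 intron 5 summit, chr10:113086882-113087181, plus strand: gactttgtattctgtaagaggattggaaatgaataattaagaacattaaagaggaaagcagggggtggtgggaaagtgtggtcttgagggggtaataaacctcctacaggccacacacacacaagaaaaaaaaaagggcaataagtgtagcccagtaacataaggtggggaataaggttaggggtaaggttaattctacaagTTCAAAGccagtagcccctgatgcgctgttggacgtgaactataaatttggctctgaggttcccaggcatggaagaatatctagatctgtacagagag

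TCF7L1 encodes TCF3, a member of the family that acts mainly as a repressor. Its promoter window had a peak only in CREBBP-KO 2, at fold 2.88 (percentile 16.7). By mean percentile over all 6 libraries, the most enriched intervals of the locus lay beyond the end of the gene, at 194.8 kb over the start of TGOLN2 (percentiles 89.1 to 93.4, not called, limma adjusted p = 0.666) and at 221.5 kb over the starts of RETSAT and ELMOD3. The latter had percentiles of 87.2, 77.5 and 83.3 in WT and 92.2, 95.0 and 94.0 in CREBBP-KO and ranked higher by 0.74 ± 0.19 (SE, limma adjusted p = 0.00438), which was lost with -log10 p as the measure (adjusted p = 0.118).

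A distal site just past the end of TCF7L1, at 179.6 kb (chr2:85311270-85315438), went the other way and was the most enriched of the locus in WT. Its folds were 15.1, 15.4 and 15.5 in WT and 7.69, 7.61 and 8.66 in CREBBP-KO. The WT libraries lay within 93.8 to 94.8 in percentile and the CREBBP-KO libraries within 76.8 to 79.3. The shift of -1.36 ± 0.18 (SE) had the smallest adjusted p of the 10 loci (limma, 1.15e-05), and it held under all alternatives in which it was tested.

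LEF1 encodes a TCF/LEF factor and is itself a Wnt target. Its promoter was weak and uneven, with folds of 3.77, 3.61 and 7.29 in WT and 6.38, 3.67 and 8.49 in CREBBP-KO (percentiles 49.8 ± 20.1 and 64.3 ± 20.4, SD, n = 3, overlapping, exact permutation test, p = 0.2), and it overlapped the start of LEF1-AS1. With a window of 500 bp on either side of the start, 1 of 3 WT libraries and all 3 CREBBP-KO libraries had a peak. The locus (chr4, canonical start 108168932, minus strand) had 7, 6 and 8 peaks in WT and 10, 10 and 9 in CREBBP-KO. Its tested sites lay past the end of the gene. The one at 171.3 kb (chr4:107995888-107998673) had folds of 4.10, 4.91 and 4.11 in WT and 7.87, 7.55 and 7.76 in CREBBP-KO and ranked higher by 1.29 ± 0.28 (SE, limma adjusted p = 0.00115), under all alternatives in which it was tested. It passed the fold filter through CREBBP-KO only, and in the fit without that filter its shift was 0.91 (limma adjusted p = 0.0037). A peak next to it, at 168.7 kb, was found in all CREBBP-KO libraries (folds 3.44, 3.30 and 4.62) and in no WT library. An interval at -4.8 kb (chr4:108172745-108173864), at a start of LEF1-AS1 and named here after its values were seen, went the other way, with folds of 3.63, 4.53 and 4.96 in WT and 2.96, 2.87 and 2.97 in CREBBP-KO (percentiles 48.5 ± 10.5 and 18.7 ± 3.19, SD, n = 3, without overlap). It missed the fold filter, and in the fit without that filter its shift was -1.17 (limma adjusted p = 0.0284). The stronger site at 159.7 kb stood at percentiles 85.0 ± 3.13 and 84.9 ± 3.08 (SD, n = 3) and was not called (limma adjusted p = 0.527).

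The summit of the LEF1 site at 171.3 kb is shown as the called distal site of this locus. It held no TCF/LEF core match.
LEF1 distal summit, chr4:107997503-107997802, plus strand: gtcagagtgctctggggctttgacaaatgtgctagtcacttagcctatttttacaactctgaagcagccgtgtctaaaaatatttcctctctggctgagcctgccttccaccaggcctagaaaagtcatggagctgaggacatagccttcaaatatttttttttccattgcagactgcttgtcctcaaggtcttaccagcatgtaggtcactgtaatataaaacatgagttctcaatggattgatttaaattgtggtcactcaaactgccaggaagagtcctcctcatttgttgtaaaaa

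APC encodes the large scaffold of the destruction complex, and its loss starts most colorectal tumours. Both of its promoters were acetylated. At the canonical start (chr5:112734748-112739812) the folds were 10.1, 11.8 and 10.8 in WT and 16.3, 17.1 and 14.9 in CREBBP-KO, and the percentiles, 84.1, 89.1 and 85.5 against 95.0, 94.7 and 91.6, did not overlap (exact permutation test, p = 0.1). The interval ranked higher by 0.52 ± 0.17 (SE, limma adjusted p = 0.0212). That call was lost with -log10 p as the measure (adjusted p = 0.181), and without WT 1, CREBBP-KO 1 or CREBBP-KO 2 (limma adjusted p = 0.0795, 0.0787 and 0.0826). The interval at the upstream start, at -30.1 kb (chr5:112706999-112710349, named here after its values were seen), had percentiles of 70.6, 72.4 and 82.0 against 89.3, 91.4 and 89.4 and ranked higher by 0.87 ± 0.22 (SE, limma adjusted p = 0.00411; 0.0958 with -log10 p as the measure).

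Within the gene the direction differed between sites. The interval in intron 5 at 38.9 kb (chr5:112775897-112777900) had folds of 8.43, 10.2 and 10.4 in WT and 3.48, 5.69 and 6.44 in CREBBP-KO. All CREBBP-KO libraries stood below all WT libraries (percentiles 82.6 ± 3.42 and 58.1 ± 18.7, SD, n = 3), and the shift of -1.58 ± 0.32 (SE, limma adjusted p = 0.000801), the largest downward one among the called intervals of the 10 loci, held under all alternatives in which it was tested. The interval passed the fold filter through WT only. In the fit without that filter its shift was -1.13 (limma adjusted p = 0.00225), against -1.17 for the LEF1 interval at -4.8 kb. In APC, the neighbouring intervals at 34.2 kb (percentiles 86.4 ± 4.81 and 86.4 ± 1.91, SD, n = 3), 41.4 and 49.3 kb were not called. Past the end of the canonical transcript, the strong interval at 123.7 kb over the start of SRP19 stood at percentiles 97.0 to 98.0 in all 6 libraries (limma adjusted p = 0.946). A weak peak in intron 4 at 30.2 kb was present in the WT libraries only (folds 2.46, 2.54 and 2.99). The number of peaks at the locus, 23, 25 and 22 in WT and 27, 21 and 26 in CREBBP-KO, overlapped.

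Over the 10 loci, 55 of the 166 intervals had a peak in all 6 libraries, 65 were found in 1 library only, and 33 passed the filter, a fold of at least 5 in all 3 libraries of a genotype, and were tested. Of the 33, 11 ranked higher in CREBBP-KO, 4 ranked lower and 18 were not called. Among the higher ones, those at AXIN2 (30.6 kb), TCF7L2 (36.1 and 136.8 kb), LEF1 (171.3 kb), KREMEN1 and NOD2 passed the filter through CREBBP-KO only. Among the lower ones, ASCL2 (-35.9 kb) and APC (38.9 kb) passed it through WT only. Admission through the genotype with the higher fold favours a call in that direction, here and over all intervals. Over all 34864 tested intervals 18.6% ranked higher and 18.7% lower, and the median shift was 0.14 for the 33 against 0.02 over all. These are shares of rank changes with no cutoff on their size. The paper tested differential peaks with a fold change cutoff and a stricter false discovery rate, and found nearly all H3K27ac peaks unaffected by CREBBP loss. By place, 2 of the 4 canonical promoter intervals ranked higher, 1 of 2 at other starts of the 10 genes, 3 of 6 at starts of neighbouring genes, and 5 of 21 distal ones, and all 4 that ranked lower were distal. Among promoter intervals of all protein-coding genes 27.2% ranked higher and 7.47% lower. No such share was computed for distal intervals, so no contrast between promoters and distal sites is drawn for these loci. Without the fold filter, 14 of 55 ranked higher and 4 lower, against 12.5% and 12.1% of all 52187 intervals with a peak in all 6 libraries. On the log2 scale the median fold of all tested intervals was 0.134 higher in CREBBP-KO, and the ranks are relative to that shift. Neither a rank within a list nor a fold over local background measures the global level of the mark. In CREBBP-KO HCECs the paper reported a small but significant decrease of global H3K27ac by immunofluorescence. By mass spectrometry it reported a moderate decrease of borderline significance.

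**Figure D3:**
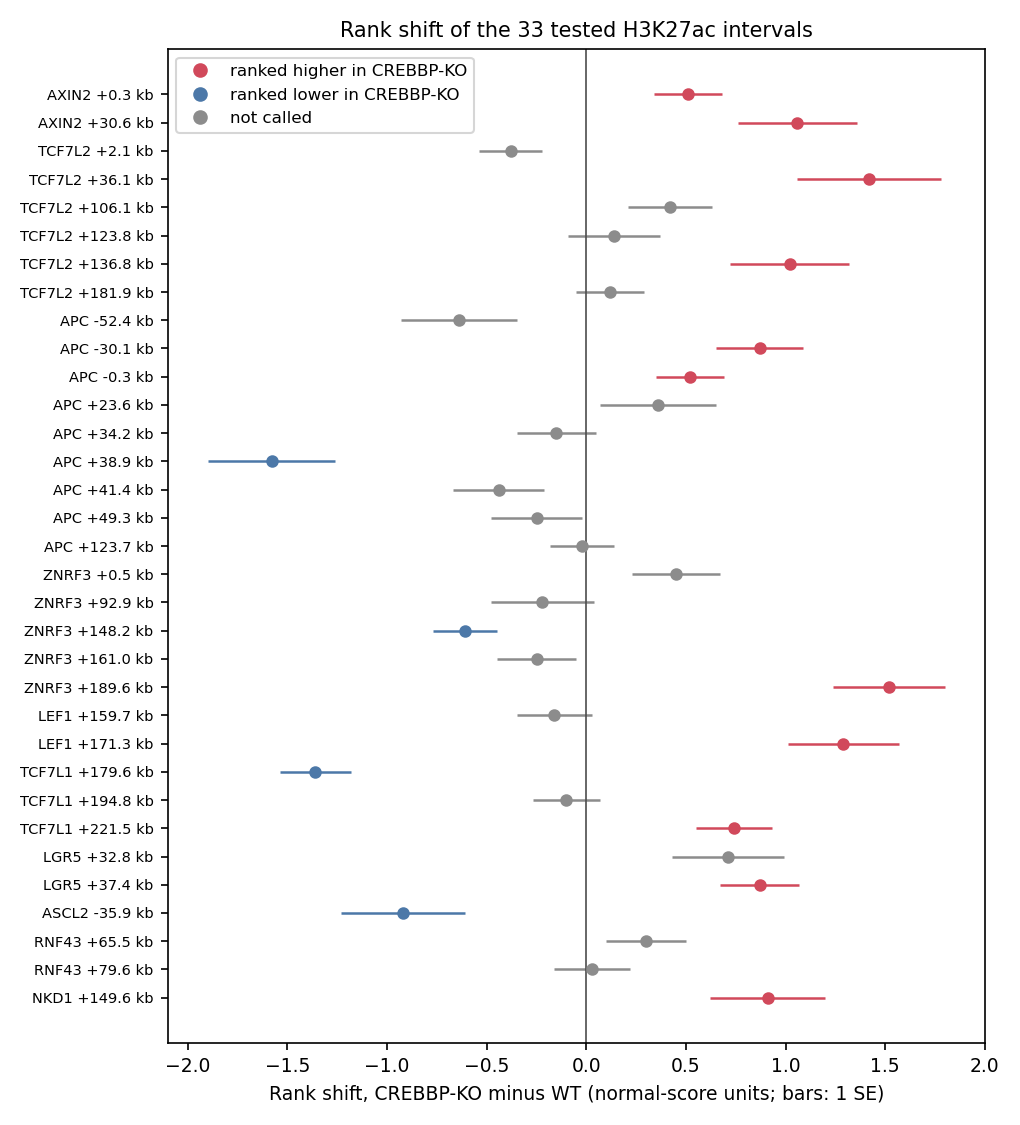
Rank shift, CREBBP-KO minus WT, in normal-score units (x axis) with 1 SE, for the 33 tested intervals, each named by its gene and the distance of its summit from the canonical start. Red intervals ranked higher (11) and blue ones lower (4) in the limma fit, and grey ones (18) were not called.

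Of the 5 genes with a promoter peak in all 6 libraries, 3 (AXIN2, APC and ZNRF3) stood at a higher percentile in every CREBBP-KO library than in any WT library, and 1 (TCF7L2) stood lower. The same held, in these directions, at 46.0% and 7.25% of the 11832 protein-coding genes with such peaks, so the rise in percentile at 3 promoters was the common pattern of the lists.

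Counted over the 10 loci, the WT libraries had 85, 97 and 85 peaks and the CREBBP-KO libraries 125, 111 and 103 (89.0 ± 6.93 and 113.0 ± 11.1, SD, n = 3, ratio 1.27, exact permutation test, p = 0.1). Without TCF7L2 the ratio was 1.09 (71.67 ± 3.79 and 78.33 ± 6.66, SD, n = 3, exact permutation test, p = 0.3), below the 1.16 of the whole lists. More peaks in every CREBBP-KO library than in any WT library were found at 3 loci, AXIN2, TCF7L2 and LEF1, and fewer at 0. Over 18162 protein-coding loci these shares were 21.0% and 1.91%. With lists of the same length TCF7L2 alone kept the separation, and the background fell to 9.71%. Peaks present in all 3 CREBBP-KO libraries and no WT library numbered 8 of the 166 intervals (background 2.66%), and the reverse 2 (background 1.08%).

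**Figure D4:**
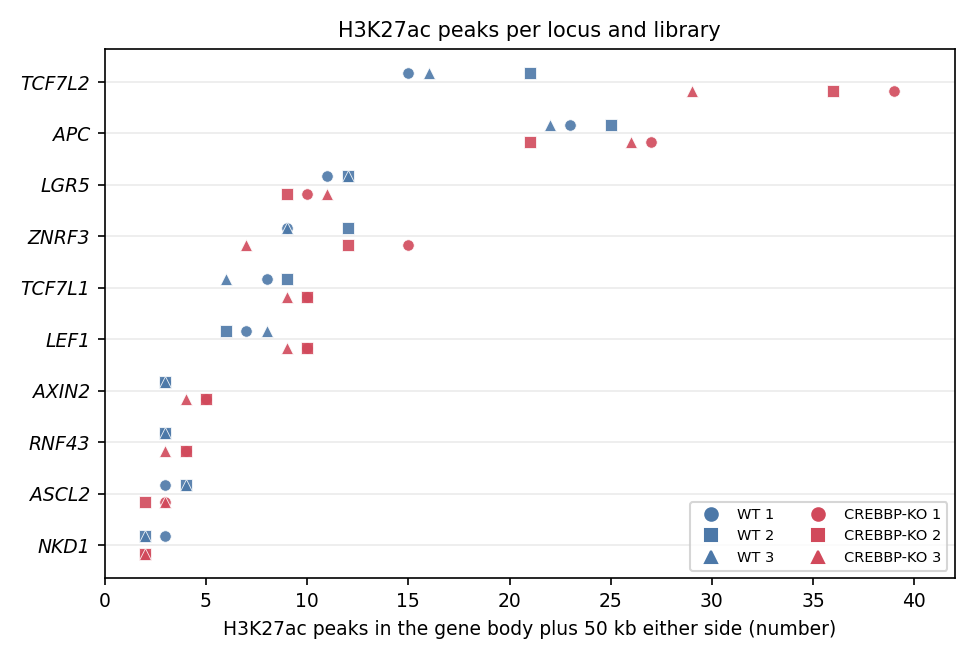
Number of H3K27ac peaks in each locus (x axis), 1 point per library, blue for WT and red for CREBBP-KO. At TCF7L2 the CREBBP-KO libraries had 29 to 39 peaks and the WT libraries 15 to 21, and at 7 of the 10 loci the genotypes overlapped.

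The wider pathway was read at the promoters of 90 further genes. A promoter peak was present in all 6 libraries at 46 of them and in none at 33. Over all protein-coding genes 59.1% had one in all 6 libraries and 35.1% in none. Ligands and R-spondins were mostly silent. A promoter peak in all 6 libraries was present at 2 of 19 WNT genes (WNT5A and WNT5B) and 0 of 4 R-spondins. It was present at 14 of 18 receptor and coreceptor genes, 11 of 12 genes of the destruction complex and cytoplasm, and 10 of 12 nuclear ones. Of 13 inhibitors, 4 (DKK1, DKK3, KREMEN1 and APCDD1) had one in all 6 libraries and 8 had none in any. Among further intestinal targets and stem genes, 5 of 12 (CCND1, CD44, EPHB2, BMI1 and FERMT1) had one in all 6 libraries, and TNFRSF19 had one in 5. OLFM4, SMOC2, SOX9, EPHB3, PROM1 and SP5 had none in any library, as for LGR5 and ASCL2.

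Of 42 tested promoter intervals of this list, 11 ranked higher, 4 lower and 27 were not called, against the 27.2% higher and 7.47% lower of all promoter intervals, with a median shift of 0.16 against 0.22 over all promoter intervals. Receptors accounted for 4 of the higher ones, with 0 lower of 11 tested. The largest upward shifts among the called intervals were at KREMEN1, described above, at CTNNB1, which encodes beta-catenin, and at ROR1, a receptor for non-canonical ligands. The CTNNB1 promoter had folds of 10.6, 11.1 and 14.5 in WT and 20.3, 21.4 and 25.8 in CREBBP-KO, without overlap (shift 0.99 ± 0.18, SE, limma adjusted p = 0.000312). ROR1 had 6.60, 7.93 and 6.94 against 10.5, 12.6 and 14.6 (shift 0.91 ± 0.21, SE, limma adjusted p = 0.00223), and all 3 calls held under each alternative in which they were tested.

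Downward, the largest shifts were at WNT5B (-0.82 ± 0.29, SE, limma adjusted p = 0.0293), TLE5, a short Groucho-family protein (-0.54 ± 0.17, SE, limma adjusted p = 0.0183), and CTNNBIP1, an inhibitor that binds beta-catenin (-0.54 ± 0.19, SE, limma adjusted p = 0.0329). TLE5 stood lower in every CREBBP-KO library (percentiles 92.2 ± 1.94 and 87.2 ± 0.941, SD, n = 3). WNT5B and CTNNBIP1 overlapped between genotypes in the percentile of the promoter window. For WNT5B the shift is that of a merged interval (chr12:1624022-1634717). In the promoter window itself the folds were 6.08, 3.19 and 5.81 in WT and 4.52, 4.10 and 4.75 in CREBBP-KO. The mean percentile there was higher in CREBBP-KO (51.8 ± 23.7 in WT and 55.6 ± 4.51, SD, n = 3), without a like rise in the folds. The WNT5B call was lost when a WT library or CREBBP-KO 2 was left out (limma adjusted p = 0.0537 to 0.116), that of CTNNBIP1 when WT 2, WT 3 or a CREBBP-KO library was (0.0543 to 0.155), and that of TLE5 when WT 3 or CREBBP-KO 2 was (0.0732 and 0.0636). With -log10 p as the measure none of the 3 was called (limma adjusted p = 0.0761 to 0.427).

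By number of peaks, 82 of the 90 loci held any, 23 of the 82 (28%) had more in every CREBBP-KO library and 0 had fewer, against 21.0% and 1.91% of all protein-coding loci. The first of these backgrounds fell to 9.71% with lists of the same length, a setting not run for these 82 loci. The ROR2 locus, a receptor of WNT5A named here after its values were seen, had 13, 11 and 10 peaks in WT and 41, 34 and 34 in CREBBP-KO (ratio 3.21), above the ratio of TCF7L2. The ROR2 promoter had a peak in 1 WT library only, at fold 2.62 (percentile 7.03), and folds of 14.8, 17.8 and 16.3 in CREBBP-KO (percentiles 93.2 to 95.3). It was not tested, since a peak in all 6 libraries was required.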

How the data were processed

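H3K27ac ChIP-seq was measured in 3 WT and 3 CREBBP-KO HCEC-1CT libraries, with 1 peak list per library. The authors aligned reads to hg38 (BWA, per the submitters' processing notes) and called narrow peaks with MACS2 in the nf-core ChIP-seq pipeline. The deposited fold enrichment is a linear ratio over local background, and significance columns were deposited on the -log10 scale (p, and q from 1.3 upwards). The deposited score was not used. The authors also ran the pipeline on reads downsampled to a comparable depth; which run gave the lists, and the control used per list, are not given in the sources used here. Inputs were not analysed here. No read counts are in the lists, so the depth per library is unknown, and no counting interval was computed.

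Merging overlapping or touching peaks of all lists gave 143733 intervals. Intervals with a fold of at least 5 in all 3 libraries of a genotype (35542) and a peak in all 6 (34864) were tested: the highest fold per library was ranked within the library, turned into normal scores and compared with limma (lmFit, eBayes with trend), with Benjamini-Hochberg adjustment over all 34864 and a call at an adjusted p under 0.05. A second limma setting left out the fold filter. For 1 value per library, an exact permutation test (two-sided) was run, and p = 0.1 is the lowest that 3 against 3 allows. Starts, gene bodies and introns followed the canonical transcripts of GENCODE release 44, a promoter being 1 kb on either side of the start. All peaks lay within the hg38 chromosome lengths, and sequences were read from that genome. The RefSeq promoter table had entries for 5 of the 10 genes and was not used. The limma code was tested on simulated data, and merging was checked against bedtools.

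The genes, lists and tests were chosen with earlier results of these data known. Named in the text were, by rule, the 10 genes, the 2 most enriched intervals of each locus away from the canonical promoter, the 3 largest called shifts in each direction, intervals present in all libraries of 1 genotype only (the 4 highest in each direction), and, from 90 further pathway genes, the 3 largest called promoter shifts in each direction. Alternatives covered the fold filter, the ranked measure, the scale, the model, the peaks used, the matching, the width of the locus and of the promoter, and leaving out each library. Replicates 1 to 3 of the genotypes share a number in the labels but no stated pairing. R 4.3.3 with limma 3.58.1, bedtools 2.31.1 and Python 3.11.15 were used, the latter with scipy 1.17.1, pandas 2.3.3, numpy 2.4.6 and matplotlib 3.10.9.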

Additional observations from a re-analysis of the deposited data

How the results depend on the processing

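The numbers of called intervals stayed within 1.5 times the reported 11 and 4 under all alternatives except a fold of at least 10, where 15 intervals were tested and 5 ranked higher and 2 lower. Leaving out 1 library gave 8 to 12 higher and 3 to 4 lower. Same-numbered libraries did not deviate together (correlations 0.0108, 0.0144 and 0.0284), and with the replicate block 11 ranked higher and 4 lower. The number of loci with more peaks in every CREBBP-KO library fell from 3 to 1 (TCF7L2) with peaks of fold at least 5, with lists of the same length and with the gene body plus 25 kb, and ranged from 3 to 5 with 1 library left out (5 without CREBBP-KO 3). The number with fewer was 1 with the gene body plus 100 kb (LGR5) and 0 to 2 with 1 library left out (2 without WT 1, 1 without CREBBP-KO 3). The difference in peaks per library over the 10 loci, 24.0, was 9.00 with peaks of fold at least 5 and 12.0 with lists of the same length, and 18.0 to 29.0 with 1 library left out.

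With any protein-coding start in place of the canonical one, the promoter difference of TCF7L2 in percentile reversed from -2.61 to 1.10, since the internal start was then counted. The other reversals were of shifts near 0 that were not called: TCF7L2 at 181.9 kb (-0.02 without WT 3, and -0.02 to 0.22 over the libraries left out), TCF7L1 at 194.8 kb (0.07, log2 fold not centred), LEF1 at 159.7 kb (0.03, -log10 p), RNF43 at 79.6 kb (0.00 with fold at least 10, -0.22 with -log10 p, and -0.07, -0.02 and -0.03 without WT 3, CREBBP-KO 1 and CREBBP-KO 2, within -0.07 to 0.16 over the libraries left out), APC at 34.2 kb (0.02 with -log10 p and 0.00 without WT 1, within -0.33 to 0.00), and APC at 123.7 kb (0.10 and 0.19 on the log2 fold scale with and without centring, and 0.06 and 0.00 without WT 3 and CREBBP-KO 3, within -0.06 to 0.06). The cause was not tested. Over the named intervals and promoters, 509 alternative values kept direction and side of the threshold, 46 were no longer called, 9 became called, 15 reversed and 4 moved by more than 1 SD. Depth is unknown, so a missing peak says only that none was called.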
